A study of Mus musculus with 10 samples.

Results

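The genes described here are 35 mouse genes of glycolysis and of the response to low oxygen, taken from a list of gene symbols (older and newer names accepted) and followed across 5 groups of cultured mouse embryonic fibroblasts. Of the 35, 27 had a probe set of their own bright enough to be tested, among 7761 genes tested on these arrays. Pfkfb3, Egln3 and Car9 were read but lay under the brightness filter. Gapdh and Bnip3l were measured only on probe sets shared with other genes, and Gpi1, Eno1 and Ankrd37 had no probe set named for them.

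Expression was measured on Affymetrix 3' arrays, 2 per group, in fibroblasts that the labels describe as G9a-deleted. G9a is the product of Ehmt2 and methylates histone H3 as well as itself. Cells of the first 4 groups had been given the vector alone (delta) or vector expressing FLAG-G9a: the wild type (WT), a form carrying the K165A substitution (K165A), or one carrying H1093K (H1093K), described as catalytically mutant. The last pair of arrays is titled G9a-deleted with no vector named, and is called the arrays labelled deleted. The promoter of the vectors, whether each group is a clone or a pool, and the oxygen and glucose of the cultures are not stated in the sources used here. The title speaks of a methylated, histone-like site of G9a itself, and the comparisons follow these genes when each form of G9a is put back. The design speaks of independent analyses, but separate cultures are nowhere stated, so p-values reflect the scatter of these arrays alone, which could be technical.

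Glycolysis turns glucose into pyruvate in the cytosol. Lactate dehydrogenase then makes lactate from pyruvate, or pyruvate enters the mitochondria. There pyruvate dehydrogenase turns it into acetyl-CoA for the citrate cycle, unless pyruvate dehydrogenase kinases shut that enzyme off. When oxygen is plentiful, prolyl hydroxylases of the Egln family mark the alpha subunit of hypoxia-inducible factor (HIF) for destruction. When oxygen is scarce the factor accumulates and binds short DNA motifs near many glycolytic genes and near genes for oxygen sensing, matrix hydroxylation, pH control and mitophagy. Fibroblasts in culture run glycolysis at a high rate even with oxygen present.

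The 10 arrays had median signals of 181 to 199. The ratio of 3' to 5' signal, a sign of RNA quality, lay between 0.741 and 0.794 for Gapdh and between 1.19 and 1.36 for beta-actin. All 11 fibroblast markers were kept by the filter, with summed signals of 56699 to 76364. Pdgfra and Postn were kept only through the arrays labelled deleted, at 1628 and 1743 and at 1683 and 1695. On all other arrays Pdgfra lay at 5.48 to 81.7, with 5.48 and 5.78 in delta, and Postn at 47.5 to 108. Leukocyte markers summed to 570 to 762 (3 of 9 kept) and endothelial markers to 285 to 376 (1 of 7 kept), with Ptprc and Pecam1 at 5.69 to 37.3 throughout. Ehmt2 itself read 473 and 415 on the delta arrays, 676 and 620 in WT, 704 and 725 in K165A, 461 and 494 in H1093K, and 1678 and 1750 on the arrays labelled deleted. The last pair goes against its label. In H1093K against delta the Ehmt2 difference was 0.10 on the log2 scale (95% interval -0.10 to 0.31) and did not pass limma's test (adjusted p = 0.735). Whether the probe set reads the deleted part of the transcript or the reintroduced one is not stated in the sources.

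Values are linear signals as deposited. Differences are on the log2(signal + 16) scale from limma, which understates the change of dim genes, each with its standard error (SE), and a gene is called higher or lower where the Benjamini-Hochberg adjusted p over 13576 probe sets is under 0.05. Each percentage of background is the share of those 13576 probe sets that passed the same rule. Differences in RNA per cell and in the mix of cells cannot be told apart in bulk samples.

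A few members moved when G9a was put back, and most did not. Against delta, 4 of the 27 members passed in WT, 2 higher (Ndrg1 and Mxi1) and 2 lower (Ldhb and Car12). That is 14.8% of the members, beside a background of 12.3% (5.58% higher and 6.68% lower). In K165A 5 passed, the same 4 plus Hk2, which was lower. That is 18.5% beside 11.6% (5.13% and 6.47%). In H1093K 0 of 27 passed beside 0.869% (0.471% and 0.398%), with 5 at an unadjusted p under 0.05. The 3 comparisons share the delta arrays. The median difference of the 27 was -0.05 in WT, -0.06 in K165A and 0.02 in H1093K, beside -0.0028, 0.0044 and -0.0024 over all probe sets tested. The WT share lies near the background. Some markers of another cell type moved in WT and K165A as well. The epithelial list summed to 1291 to 1555 in delta, 882 to 958 in WT, 749 to 888 in K165A and 995 to 1222 in H1093K, with 4 of 8 kept and Epcam at 4.03 to 35.9 on all 10 arrays. Its Krt18 read 583 and 553 in delta, 172 and 168 in WT, 182 and 141 in K165A, and 384 and 383 in H1093K. Krt19 was lower too, averaging 435.7 in delta, 279.5 in WT and 221.9 in K165A. The other kept markers of that list were not lower in WT. Krt8 averaged 128.8 in delta, 133.2 in WT and 91.87 in K165A. Cdh1 averaged 106.3, 171.5 and 128.2 in the same order, its K165A arrays lying between the delta arrays. Fibroblast markers moved in both directions. Thy1 read 1711 and 2028 in delta, 931 and 1047 in WT, 977 and 1002 in K165A, and 1676 and 1744 in H1093K. S100a4 was lower as well, at 6148 and 7178 in delta, 5022 and 4725 in WT, and 5076 and 4798 in K165A. Col3a1 was higher, at 2220.5 and 2739 in delta, 4490 and 4703 in WT, and 4491 and 4900 in K165A. So was Pdgfrb, at 645 and 680 in delta, 1519 and 1270 in WT, and 1416 and 1245 in K165A. The part of these markers in the WT and K165A results was not tested.

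**Figure D1:**
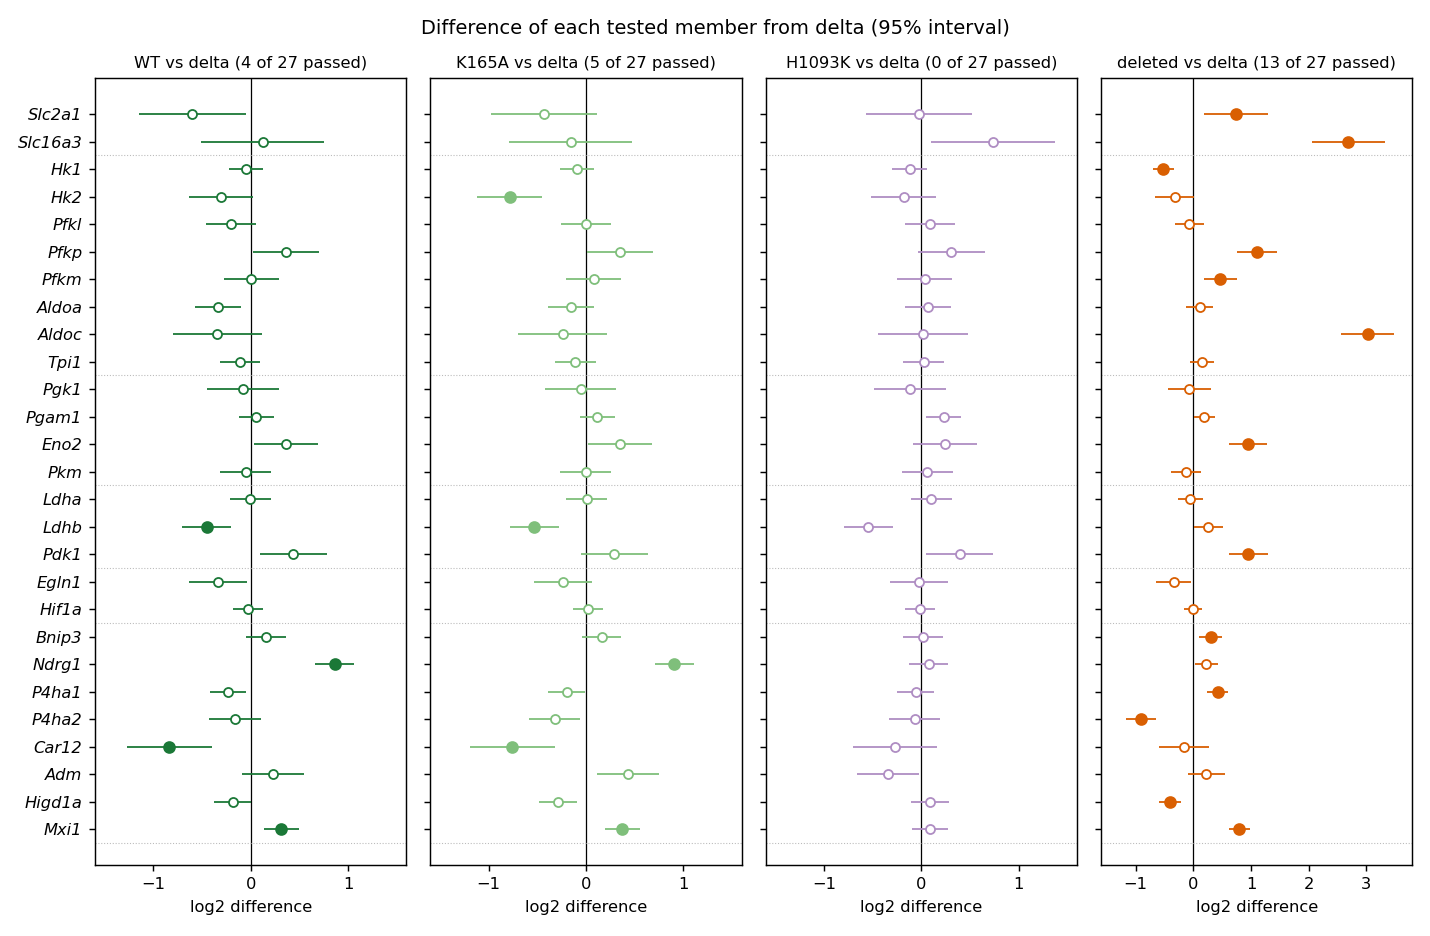
Difference of each of the 27 tested members from delta on the log2(signal + 16) scale, with bars for the 95% interval, in 4 panels for WT, K165A, H1093K and the arrays labelled deleted; filled points passed the adjusted threshold and dotted lines separate the roles. In the first 3 panels most points lie near 0 with Ndrg1 standing out in WT and K165A, while 13 points are filled in the last panel, whose axis is wider; 2 of these, Aldoc and Slc16a3, passed the brightness filter only through the arrays plotted there.

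Ndrg1, a stress- and hypoxia-induced gene that restrains growth and migration in several cell types, gave the clearest difference. It read 528 and 550 on the delta arrays, 968 and 1022 in WT, 1024 and 1023 in K165A, 527 and 613 in H1093K, and 616 and 648 on the arrays labelled deleted. The WT and K165A arrays all lay above every other array, and H1093K overlapped delta. Against delta the log2 difference was 0.87 ± 0.09 (SE) in WT, a 1.82-fold rise, with limma's adjusted p = 0.000201. In K165A it was 0.91 ± 0.09 (1.87-fold, limma adjusted p = 0.000154). In H1093K it was 0.08, with an interval of -0.13 to 0.28, and did not pass (limma adjusted p = 0.824). The difference between the mutants and wild type was tested as well. In H1093K, Ndrg1 was 1.73-fold lower than in WT (log2 -0.79 ± 0.09, limma adjusted p = 0.000410) and higher in K165A than in H1093K by 1.78-fold (log2 0.83 ± 0.09, limma adjusted p = 0.000310). Its 5 probe sets passed in the same direction in all 4 of these comparisons, and each of the 4 calls held in all 21 alternatives run.

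Mxi1 encodes a Max-binding repressor that opposes Myc. It read 626 and 578 in delta, 735 and 770 in WT, 765 and 804 in K165A, and 666 and 615 in H1093K, so both WT and both K165A arrays lay above the other 4. The rise over delta was 1.24-fold in WT (log2 0.32 ± 0.08, limma adjusted p = 0.0342) and 1.3-fold in K165A (log2 0.37 ± 0.08, limma adjusted p = 0.0168). A second probe set also passed in both, with log2 differences of 0.77 and 0.58. The WT call was lost in 9 of 21 alternatives, among them leaving out any 1 of the delta, WT or deleted arrays (adjusted p up to 0.173). The K165A call was lost in 3, among them without delta replicate 2 or K165A replicate 2 (adjusted p up to 0.108).

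Ldhb, the lactate dehydrogenase subunit usually tied to lactate use, read lower on every array where a G9a construct had been added, and passed in WT and K165A. It read 638 and 744 in delta, 465 and 536 in WT, 453 and 492 in K165A, and 476 and 457 in H1093K. Both delta arrays lay above all 6 others. The fall was 1.37-fold in WT (log2 -0.45 ± 0.11, limma adjusted p = 0.0284) and 1.44-fold in K165A (log2 -0.53 ± 0.11, limma adjusted p = 0.0142). In H1093K the difference was -0.55 ± 0.11, with an interval of -0.80 to -0.30, and did not pass (limma adjusted p = 0.0609). With the replicate number as a block it did, beside 3.47% of all probe sets (adjusted p = 0.00857), and it ranged from 0.00857 to 0.341 over 21 alternatives, passing also under median centring and quantile normalization. The 4 probe sets of Ldhb lay lower on all 4 WT and K165A arrays. One of them, at 345 and 415 in delta and 244 and 255 in WT, missed the threshold in WT (limma adjusted p = 0.0694). Ldhb calls were lost without delta replicate 2 in both comparisons, without WT replicate 1 in WT and without K165A replicate 1 in K165A, with adjusted p up to 0.181 and 0.104.

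Car12, a cell-surface carbonic anhydrase that helps cells export acid, was dim and lower in both. Signals were 192 and 152 in delta, 82.9 and 94.5 in WT, 102 and 87.4 in K165A, and 127 and 150 in H1093K. The 4 WT and K165A arrays lay under the 4 others. The fall was 1.78-fold in WT (log2 -0.84 ± 0.19, limma adjusted p = 0.0212) and 1.69-fold in K165A (log2 -0.76 ± 0.19, limma adjusted p = 0.0332). Neither call held with no brightness filter. Without delta replicate 1 or either WT array the WT call was lost (adjusted p up to 0.126), and the K165A call without any 1 of the delta or K165A arrays (adjusted p up to 0.170).

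Hk2, the inducible hexokinase that commits glucose to glycolysis at the mitochondrial surface, was lowest in K165A. It read 492 and 499 in delta, 405 and 391 in WT, 323 and 244 in K165A, and 435 and 434 in H1093K, so the K165A arrays lay under all others and differed most from each other. Hk2 was 1.72-fold lower in K165A than in delta (log2 -0.79 ± 0.15, limma adjusted p = 0.00796), a call lost only without K165A replicate 2 among 21 alternatives (adjusted p = 0.0525). Its difference from delta in WT, -0.31, did not pass (limma adjusted p = 0.230).

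With the replicate number of the titles as a block, 7 members passed in WT against delta and 8 in K165A, beside 21.1% and 20.0% of all probe sets (2863 and 2719). Aldoa, Slc2a1 and P4ha1 were added as lower in WT, at adjusted p of 0.0332, 0.00922 and 0.0340. Slc2a1, P4ha2 and Higd1a were added as lower in K165A, at 0.0432, 0.0158 and 0.0277. None of these 6 differences passed in the fit without the block. Read as the mean of the gene's probe sets, all but P4ha2 passed too (adjusted p of 0.0336 to 0.0457), and Aldoa also passed under quantile normalization and without either K165A array. Over all alternatives the highest adjusted p of the 6 lay between 0.221 and 0.712.

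H1093K was also set against WT and K165A. In H1093K against WT 3 of 27 members passed, 1 higher (Aldoa) and 2 lower (Ndrg1 and Adm), which is 11.1% beside a background of 8.38% (4.25% and 4.13%). In K165A against H1093K 4 passed, 2 higher (Ndrg1 and Adm) and 2 lower (Hk2 and Higd1a), which is 14.8% beside 7.70% (3.66% and 4.04%). Both comparisons use the H1093K arrays.

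Adm, which encodes the vasodilator peptide adrenomedullin, a textbook HIF target, read 159 and 170 in delta, 210 and 182 in WT, 229 and 225 in K165A, and 118 and 134 in H1093K. The H1093K arrays were the lowest of the 8 and the K165A arrays the highest. It was 1.71-fold higher in K165A than in H1093K (log2 0.77 ± 0.14, limma adjusted p = 0.00803) and 1.49-fold lower in H1093K than in WT (log2 -0.57 ± 0.14, limma adjusted p = 0.0350). The first call was lost without K165A replicate 1 or H1093K replicate 1 (adjusted p up to 0.0701). The second was lost in 11 of 20 alternatives, among them leaving out any 1 of the WT, K165A, H1093K or deleted arrays (adjusted p up to 0.221). From delta, Adm differed by 0.43 in K165A and -0.35 in H1093K, and neither passed (limma adjusted p = 0.0848 and 0.366).

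Aldoa, the muscle and general aldolase that splits fructose bisphosphate, read 3679 and 3718 in delta, 2995 and 2850 in WT, 3662 and 3017 in K165A, and 3632 and 4116 in H1093K. Both WT arrays lay under the other 6. It was 1.32-fold higher in H1093K than in WT (log2 0.40 ± 0.11, limma adjusted p = 0.0450), a call lost in 13 of 21 alternatives, among them leaving out any 1 of the 8 arrays of delta, WT, H1093K or the deleted pair (adjusted p up to 0.242). Of its 4 kept probe sets, 3 passed here. The fourth had a difference of 0.03 (limma adjusted p = 0.946). The other 2 that passed here were also lower in WT than in delta (limma adjusted p = 0.00984 and 0.0163), where the tested one was not called (0.0666), and lower in K165A than in H1093K.

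Higd1a encodes a small hypoxia-induced protein of the mitochondrial inner membrane. It read 1172 and 1134 in delta, 1064 and 962 in WT, 903 and 981 in K165A, and 1161 and 1299 in H1093K. The WT and K165A arrays lay under the other 4. It was 1.3-fold lower in K165A than in H1093K (log2 -0.38 ± 0.09, limma adjusted p = 0.0259). The call was lost without K165A replicate 1 or H1093K replicate 2 (adjusted p up to 0.177), and its second kept probe set did not pass. Hk2 was 1.52-fold lower in the same comparison (log2 -0.60 ± 0.15, limma adjusted p = 0.0365), a call lost in 12 of 21 alternatives, with K165A replicate 2 left out and with any delta, WT or H1093K array left out among them (adjusted p up to 0.178).

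**Figure D2:**
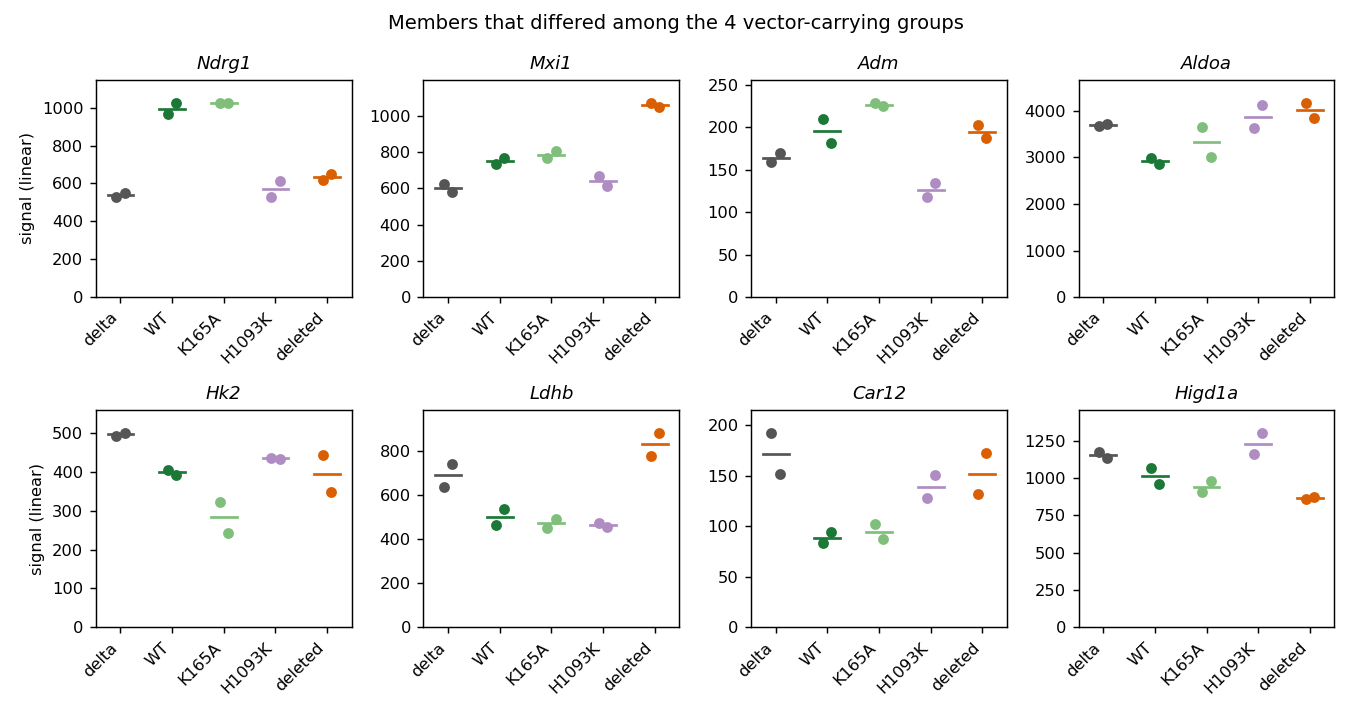
Linear signal of 8 members on every array, in 5 groups of 2; points are arrays, horizontal lines group means, and each axis starts at 0. Ndrg1 lies between 968 and 1024 in WT and K165A and between 527 and 648 elsewhere, Hk2 is lowest in K165A, and the 2 delta arrays of Ldhb and Car12 lie above WT and K165A.

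Under the block, 6 members passed in H1093K against WT beside 14.7% of all probe sets, with Pfkl, Slc2a1 and Higd1a added as higher (adjusted p = 0.0190, 0.0148 and 0.0417, and up to 0.772 in the other settings). In K165A against H1093K, where 1898 of the 13576 probe sets passed, it added Slc16a3 as lower and Mxi1 as higher (adjusted p = 0.0216 and 0.0292, and up to 0.390 in the other settings). Slc16a3 was bright enough to be tested only through the arrays labelled deleted. It read 64.8 and 59.1 in K165A and 108 and 153 in H1093K.

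K165A and WT were compared directly to ask whether the substitution altered these genes. None of the 27 passed limma's adjusted threshold, 1 did at an unadjusted p under 0.05, and with the replicate block 0 passed. The background was 0%, with 433 probe sets at an unadjusted p under 0.05. The 1 member was Hk2, at -0.48 with an interval of -0.81 to -0.15. For Ndrg1 the difference was 0.04, with an interval of -0.16 to 0.24. Over the 27 members the intervals reached from -0.91, for Slc16a3, to 0.72, for Slc2a1, these 2 genes having the widest intervals.

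Across the 8 arrays of delta, WT, K165A and H1093K, 8 of the 27 tested members had a highest signal under 1.3 times the lowest, as did 31.8% of all probe sets tested. They were the enzyme genes Hk1, Tpi1, Pgam1, Pkm and Ldha, with Bnip3, P4ha1 and Hif1a, each read on its brightest probe set. Dimmer kept probe sets ranged more widely for Hk1 (473 to 680), Hif1a (450 to 633) and P4ha1 (419 to 547). Hk2, Aldoc and Pfkp ranged more widely, by 2.05, 1.90 and 1.54 times. Ldha, which makes lactate from pyruvate, ranged from 3650 to 4410. Pkm, the pyruvate kinase of the last step, ranged from 3807 to 4666. Tpi1, which interconverts the triose phosphates, ranged from 3929 to 4725. None of these 3 passed in any of the 7 comparisons.

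Of the 8 tested enzymes of the first steps, Hk2 and Aldoa passed as given above. None of Hk1, Pfkl, Pfkp, Pfkm, Aldoc and Tpi1 passed in the 6 comparisons among delta, WT, K165A and H1093K. Aldoc lay under the filter signal on all arrays of those groups. The backgrounds there were 0% to 12.3%, so few calls are looked for among so few genes. Pfkl, the liver-type phosphofructokinase, ranged from 1184 to 1628. Pfkp, the platelet type, ranged from 161 to 247 with both delta arrays lowest, and its difference from delta in WT, 0.36, did not pass (limma adjusted p = 0.168). Pfkfb3, whose product makes the activator of phosphofructokinase, ranged from 50.6 to 98.0 on its brighter probe set, under the filter signal of 104.

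Below the trioses, Pgk1, Pgam1, Eno2 and Pkm were tested and 0 of 4 passed in those comparisons, beside the same backgrounds. Pgk1, phosphoglycerate kinase, ranged from 5915 to 8124 on its brightest probe set. A dimmer Pgk1 probe set passed as lower in K165A than in H1093K, at 461 and 464 against 674 and 682 (limma adjusted p = 0.0176). Gapdh, whose control probe set at the 3' end was not tested, ranged from 6508 to 8102 over the 10 arrays.

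The transporters gave a less even picture. Slc2a1, the general glucose transporter GLUT1, read 533 and 392 in delta, 328 and 267 in WT, 376 and 298 in K165A, and 596 and 338 in H1093K on its brightest probe set. All 4 WT and K165A arrays lay under both delta arrays, yet no difference passed (limma adjusted p = 0.152 in WT and 0.317 in K165A), the arrays of a group lying far apart. Another Slc2a1 probe set, with 379 and 338 in delta, 267 and 204 in WT, 222 and 218 in K165A, and 368 and 358 in H1093K, did pass. It was lower than delta in WT (log2 -0.58 ± 0.13, limma adjusted p = 0.0197) and in K165A (log2 -0.66 ± 0.13, limma adjusted p = 0.0107), higher in H1093K than in WT (0.0212) and lower in K165A than in H1093K (0.0114). The gene's remaining probe set did not pass in these 4. Slc16a3, the lactate exporter MCT4, was dim, at 49.4 to 153 over the 8 arrays, and its difference of 0.73 from delta in H1093K did not pass (limma adjusted p = 0.334).

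**Figure D3:**
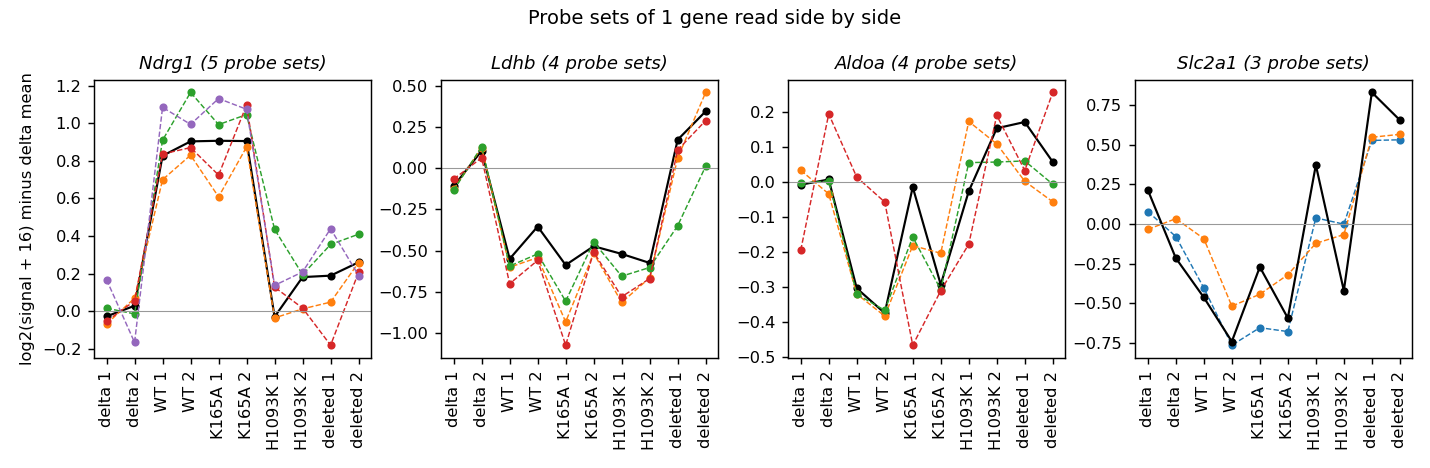
Each line follows 1 kept probe set of Ndrg1, Ldhb, Aldoa or Slc2a1 across the 10 arrays, as log2(signal + 16) minus the mean of its 2 delta arrays; the solid black line is the tested probe set and dashed lines are the gene's others. The 5 Ndrg1 lines run together, while 1 of the 4 Aldoa lines and the 3 Slc2a1 lines part in WT, K165A or H1093K.

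The oxygen sensing members tested, Hif1a and Egln1, did not pass in any of the 7 comparisons. Hif1a encodes the HIF alpha subunit, which is controlled mostly at the protein level. On its brightest probe set it ranged from 2708 to 2898 over all 10 arrays, a highest to lowest ratio of 1.07. A dimmer kept probe set ranged from 439 to 633. Egln1, the main HIF prolyl hydroxylase, read 703 and 669 in delta and 456 and 638 in WT, and the difference of -0.34 did not pass (limma adjusted p = 0.142). Without WT replicate 2, the brighter WT array, it passed (adjusted p = 0.0159), and over 21 alternatives it ranged up to 0.835. In H1093K against WT the same omission gave 0.0212. The second kept probe set of Egln1 went the other way. It read 291 and 349 in delta, 361 and 388 in WT, and 327 and 330 in H1093K. Egln3, a HIF-induced prolyl hydroxylase, lay under the filter at 32.0 to 84.0 over the 8 arrays. Car9, another HIF-induced carbonic anhydrase, was under it too, at 69.4 to 132.

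Pdk1 encodes a kinase that shuts off pyruvate dehydrogenase. Its signals were 248 and 208 in delta, 280 and 352 in WT, 257 and 310 in K165A, and 319 and 289 in H1093K. Every array of the 3 other groups lay above both delta arrays, and none of the differences passed (limma adjusted p = 0.0971 in WT, 0.273 in K165A and 0.338 in H1093K). Of the collagen prolyl hydroxylase subunits, P4ha1 read 1018 and 1114 in delta, 902 and 906 in WT, 919 and 934 in K165A, and 953 and 1095 in H1093K. P4ha2 read 917 and 1107, 886 and 911, 740 and 867, and 884 and 1040 in the same order. Neither passed in any of the 6 comparisons. Bnip3, a mitophagy receptor, ranged from 744 to 891.

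An F test over delta, WT, K165A and H1093K together passed for 7 of the 27 members, which is 25.9% beside a background of 11.9%. They were Ndrg1, Adm, Ldhb, Hk2, Mxi1, Car12 and Higd1a. Of these 7, 5 belong to the hypoxia response group of 8, 1 to the 8 enzymes of the first steps and 1 to the pyruvate genes. With the replicate block 11 passed, beside 22.4% of all probe sets.

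The arrays labelled deleted stood apart from delta in many more members. Of the 27, 10 were higher and 3 lower, which is 48.1% beside a background of 33.9% (16.2% higher and 17.6% lower), and the median difference was 0.19 beside -0.01 over all probe sets. Aldoc and Slc16a3 passed the brightness filter only through these arrays and so had to differ. Over the 25 other members 8 were higher and 3 lower, which is 44.0% beside 33.1% (15.2% higher and 17.9% lower) of the 13358 probe sets bright enough without this pair, and their median difference was 0.15. Of these 25 by role, 1 of 1 transporter, 2 of 7 enzymes of the first steps, 1 of 4 of the later steps, 1 of 3 pyruvate genes and 3 of 8 hypoxia response genes were higher. The 3 that were lower were Hk1, P4ha2 and Higd1a. With the replicate block 16 of the 27 passed, beside 43.8% of all probe sets. Other markers moved with this pair: Pdgfra read 1628 and 1743 against 5.78 and 5.48 in delta, and Postn 1683 and 1695 against 47.5 and 91.8. Other fibroblast markers read lower, with S100a4 at 1151 and 1255 against 6148 and 7178, Thy1 at 1070 and 1308 against 1711 and 2028, and Vim at 7952 and 8871 against 10345 and 11662. The epithelial list summed to 4202 and 4296 against 749 to 1555 on the 8 other arrays. Krt8 and Krt18 made up most of that sum, whereas Cdh1 averaged 24.0 against 106 in delta and Krt19 read 391 and 385 against 446 and 426. The part of these in the results was not tested.

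The 2 members that had to differ are given as values, with no test. Slc16a3 read 452 and 653 on the arrays labelled deleted against 49.4 and 99.4 in delta, 6.44-fold higher on the log2(signal + 16) scale. Aldoc, the brain-type aldolase, chosen for full values after they were seen, read 548 and 537 against 58.6 and 47.3, 8.13-fold higher on that scale. No other array of Aldoc exceeded 58.6 and none of Slc16a3 exceeded 153. Slc2a1 read 825 and 729 (1.67-fold, log2 0.74 ± 0.24, limma adjusted p = 0.0412). All 3 of its probe sets passed as higher, though the call of the tested one was lost in 7 of 20 alternatives, among them without delta replicate 2 or any WT or deleted array (adjusted p up to 0.217).

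Enzyme forms shifted unevenly. Pfkp, also chosen after its values were seen, read 376 and 386 against 161 and 177 (2.15-fold, log2 1.11 ± 0.15, limma adjusted p = 0.000397). Eno2, the neuronal enolase, read 294 and 327 against 143 and 162 (1.94-fold, log2 0.95 ± 0.15, limma adjusted p = 0.000815). Pfkp and Eno2 were thus higher, while Aldoa, Pfkl, Tpi1, Pgk1, Pgam1, Pkm and Ldha did not pass. Under quantile normalization alone, Tpi1 and Pgam1 passed as higher (limma adjusted p = 0.0225 and 0.0224). Hk1, the constitutive hexokinase and likewise chosen afterwards, read 1118 and 974 against 1472 and 1534 (1.43-fold lower, log2 -0.52 ± 0.08, limma adjusted p = 0.000797). Pfkm, the muscle phosphofructokinase, was 1.38-fold higher, a call lost without delta replicate 2 or either deleted array (adjusted p up to 0.124).

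Among the pyruvate and hypoxia genes, Pdk1 read 478 and 436 against 248 and 208 (1.94-fold higher, log2 0.96 ± 0.15, limma adjusted p = 0.000969), and its second probe set passed as well. Mxi1 read 1071 and 1046 against 626 and 578 (1.74-fold higher, log2 0.80 ± 0.08, limma adjusted p = 5.22e-05). The collagen hydroxylase subunits parted. P4ha1 read 1409 and 1456 against 1018 and 1114 (1.34-fold higher, log2 0.42 ± 0.08, limma adjusted p = 0.00374). P4ha2 read 525 and 538 against 917 and 1107 (1.87-fold lower, log2 -0.90 ± 0.12, limma adjusted p = 0.000262). Higd1a read 860 and 873 against 1172 and 1134 (1.32-fold lower, limma adjusted p = 0.00518). Bnip3 was 1.23-fold higher, and that call was lost without any 1 of the delta or deleted arrays (adjusted p up to 0.143). Ndrg1, Ldhb and Egln1 passed only in some alternatives, the replicate block among them (adjusted p = 0.0301, 0.0309 and 0.0343, and up to 0.466 elsewhere); 1 of the 4 other Ndrg1 probe sets passed as higher (limma adjusted p = 0.0391).

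Of the members under the filter, Egln3 read 149 and 150 on the arrays labelled deleted against 81.7 and 84.0 in delta, and the dimmer Pfkfb3 probe set 157 and 108 against 55.4 and 41.0. The other Pfkfb3 probe set read 82.1 and 43.5 against 98.0 and 50.6. These were not tested.

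**Figure D4:**
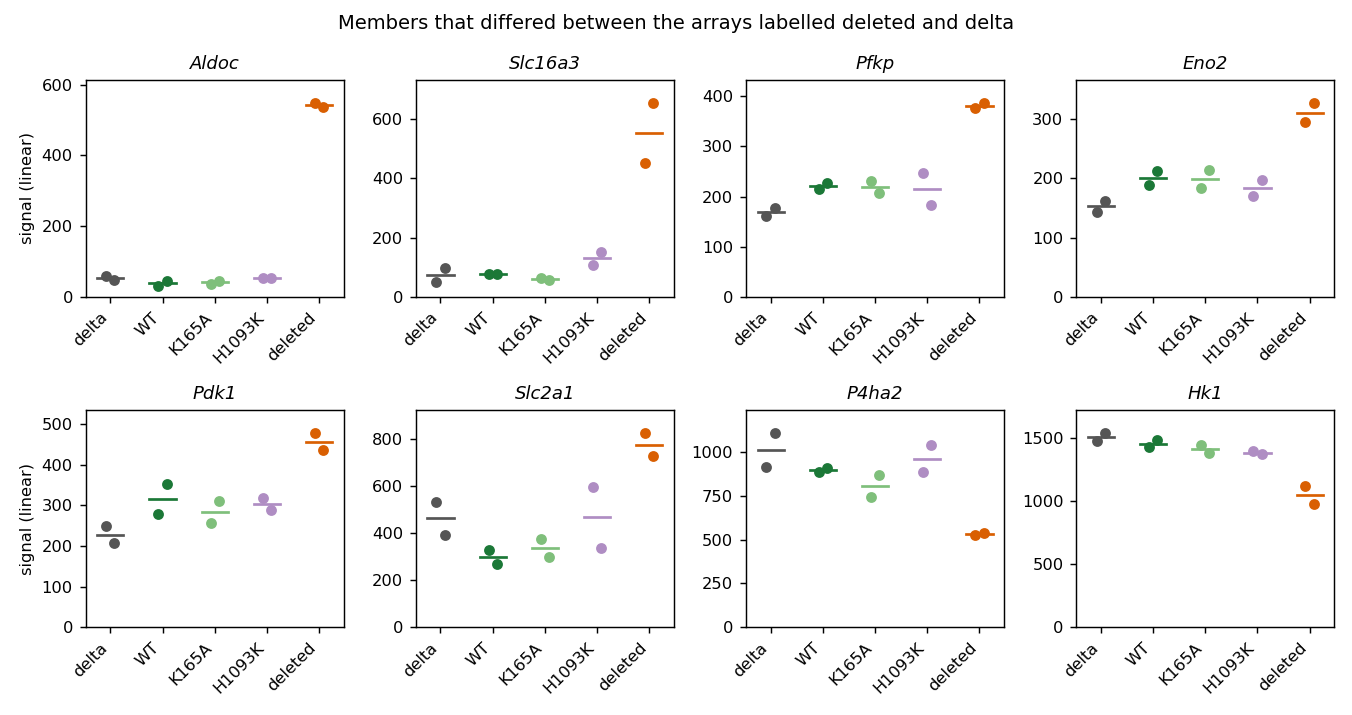
Linear signal of 8 members on every array, drawn as points with group means as lines and axes starting at 0. The arrays labelled deleted lie above all others for Aldoc, Slc16a3, Pfkp, Eno2, Pdk1 and Slc2a1 and under all others for P4ha2 and Hk1.

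The DNA just before the start of these genes was read for the HIF core motifs, since so many members are described as HIF targets. The windows are the 250 bases before the first transcript start listed, from RefSeq on GRCm38.p6, and 33 of the 35 members matched an entry. They are shown for Slc16a3 and Aldoc, which read highest above delta on the arrays labelled deleted, for P4ha2, which had the largest fall, and for Ldha, which did not pass in any comparison. Capitals mark the HIF core motif ACGTG, or its variant that begins with G instead, GCGTG, on either strand, so that a match on the other strand appears as its reverse complement. Positions count from the start, with -1 the base just before it.
Slc16a3 (chr11:120948817-120949066, plus strand): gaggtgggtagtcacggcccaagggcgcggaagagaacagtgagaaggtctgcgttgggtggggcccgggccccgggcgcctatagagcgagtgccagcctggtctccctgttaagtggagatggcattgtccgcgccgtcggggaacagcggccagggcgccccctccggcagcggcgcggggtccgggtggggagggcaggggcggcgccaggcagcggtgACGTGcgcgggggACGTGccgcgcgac
Aldoc (chr11:78322823-78323072, plus strand): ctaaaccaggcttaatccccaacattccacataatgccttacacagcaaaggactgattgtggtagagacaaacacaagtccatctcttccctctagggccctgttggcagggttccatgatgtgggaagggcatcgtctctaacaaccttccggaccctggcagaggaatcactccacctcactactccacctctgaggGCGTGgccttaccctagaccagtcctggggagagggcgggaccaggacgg
P4ha2 (chr11:54100674-54100923, plus strand): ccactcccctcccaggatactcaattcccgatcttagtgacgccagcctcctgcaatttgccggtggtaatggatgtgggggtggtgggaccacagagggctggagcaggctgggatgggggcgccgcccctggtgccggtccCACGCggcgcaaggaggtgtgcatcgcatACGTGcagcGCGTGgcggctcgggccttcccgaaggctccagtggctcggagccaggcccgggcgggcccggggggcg
Ldha (chr7:46845554-46845803, plus strand): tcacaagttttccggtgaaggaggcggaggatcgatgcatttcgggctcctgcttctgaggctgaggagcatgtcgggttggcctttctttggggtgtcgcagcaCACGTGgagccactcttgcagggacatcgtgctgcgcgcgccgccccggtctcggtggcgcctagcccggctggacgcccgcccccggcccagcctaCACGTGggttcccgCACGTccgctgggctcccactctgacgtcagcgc

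Slc16a3 held ACGTG at -27 and -14, Aldoc GCGTG at -50, and P4ha2 ACGTG at -78 with GCGTG at -69 and, on the other strand, at -107. In Ldha, whose level hardly moved, ACGTG was found 5 times, 4 of them as the 2 strands of CACGTG. The first motif was in 16 of the 33 member windows (48.5%) and in 16.6% of all 32851 windows of this length. Members are counted on their first listed start only, whereas the 32851 windows take in every listed start, so the shares are not strictly alike. Aldoa, Pkm and Mxi1 held ACGTG, and Hk1 GCGTG, only at a later listed start. The variant with G was in 16 of 33, beside 28.2%, and at least 1 of the motifs in 25 of 33, which is 75.8% beside 38.6%. The palindrome is counted on both strands, so 1 site can give 2 matches. Within the members, 6 of the 8 higher on the arrays labelled deleted held at least 1 motif (8 of 10 with Aldoc and Slc16a3), as did 2 of the 3 lower and 9 of the 13 with a window that were not called. A match is only a run of letters, and the members were listed in part because they are known HIF targets.

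Further genes of the same pathways were read from lists chosen by name. Of 38 other glycolysis, pyruvate and lactate genes 20 were tested. Against delta, 1 was higher and 6 lower in WT, 0 and 3 in K165A, and 0 in H1093K (1 at an unadjusted p under 0.05 in limma's fit), with median differences of -0.16, -0.12 and 0.00. The shares called are 35.0% and 15.0% in WT and K165A, beside 12.3% and 11.6% of all probe sets. The 1 higher in WT, Bpgm, was lost in 9 of 20 alternatives, and of the 6 lower, Pgm1 was lost in 13 of 20 and Slc2a3 in 15 of 19 (adjusted p up to 0.235). Slc2a3 is counted in the 35.0%, though it was bright enough to be tested only through the arrays labelled deleted. It was dim here, at 77.5 and 82.0 in delta and 41.8 and 52.6 in WT. Leaving out delta replicate 1 alone lost Bpgm, Pgm1, Slc2a3 and Pdk3. Pdk4, a pyruvate dehydrogenase kinase induced by fasting, read 974 and 1176 in delta, 465 and 478 in WT, 469 and 495 in K165A, and 1053 and 1199 in H1093K. It was 2.23-fold lower in WT and 2.18-fold lower in K165A than in delta (limma adjusted p = 0.000135 and 0.000164), and 2.34-fold higher in H1093K than in WT (0.000109). Slc16a1, the lactate carrier MCT1, read 692 and 887 in delta, 475 and 459 in WT, 457 and 404 in K165A, and 912 and 958 in H1093K. It was 1.66-fold and 1.79-fold lower than delta in WT and K165A (limma adjusted p = 0.00286 and 0.00125). Both genes passed under all 20 alternatives in these comparisons. Eno3, the muscle enolase, was 1.43-fold lower in WT (log2 -0.52 ± 0.10, limma adjusted p = 0.00759), which was lost without WT replicate 2 (0.0621), and 1.41-fold lower in K165A, lost without delta replicate 1 or K165A replicate 2 (up to 0.0640). Pdk3 was 1.35-fold lower in WT (limma adjusted p = 0.0326), a call lost without either delta array or without WT replicate 1 (up to 0.203). In H1093K against WT 3 of the 20 were higher and in K165A against H1093K 3 were lower, each time Pdk4, Slc16a1 and Eno3.

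Of 42 other hypoxia-responsive genes 32 were tested. Against delta, 2 were higher and 9 lower in WT, 1 and 9 in K165A, and 0 of 32 in H1093K, with 7 at an unadjusted p under 0.05 in limma's fit. H1093K against WT gave 8 higher and 3 lower, and K165A against H1093K 1 higher and 6 lower. The shares called are 34.4% in WT and 31.3% in K165A against delta, 34.4% in H1093K against WT and 21.9% in K165A against H1093K, beside 12.3%, 11.6%, 8.38% and 7.70% of all probe sets. Medians in the WT and K165A comparisons with delta were -0.10 and -0.11. Vegfa, the angiogenic growth factor, read 238 and 224 in delta, 100 and 65.8 in WT, 94.8 and 104 in K165A, and 224 and 192 in H1093K. It was 2.53-fold lower in WT and 2.14-fold lower in K165A (limma adjusted p = 0.000896 and 0.00298). Bhlhe40, a clock-linked repressor induced by hypoxia, read 2130 and 2350 in delta, 1261 and 1118 in WT, 1097 and 986 in K165A, and 1790 and 1825 in H1093K (1.87-fold and 2.13-fold lower, limma adjusted p = 0.000154 and 4.46e-05). Ddit4, an mTORC1 inhibitor, was 1.82-fold and 1.73-fold lower (0.000373 and 0.000660), and Gadd45b, a stress gene, 1.4-fold and 1.41-fold lower (0.000948 and 0.000914), in limma's fit. These directions are the reverse of those of Ndrg1 and Mxi1 in the same cells.

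In H1093K against WT, Vegfa was 2.29-fold, Bhlhe40 1.52-fold, the lipid droplet gene Plin2 1.49-fold and the sterol sensor gene Insig2 1.56-fold higher (limma adjusted p = 0.00197, 0.00239, 0.00507 and 0.0148). The Insig2 call was lost without either WT array or without H1093K replicate 1 (up to 0.123). In K165A against H1093K, Bhlhe40, Vegfa, Insig2 and Plod2, a collagen lysyl hydroxylase, were lower (limma adjusted p = 0.000443, 0.00801, 0.0171 and 0.0120). Those for Vegfa, Insig2 and Plod2 were each lost without either of 2 arrays: K165A replicate 1 and H1093K replicate 1 for Vegfa (up to 0.0719), K165A replicate 2 and H1093K replicate 1 for Insig2 (up to 0.137), K165A replicate 1 and H1093K replicate 2 for Plod2 (up to 0.0964).

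The oxygen sensing list (18 genes, 12 tested) gave 0 called in any of the 6 comparisons among delta, WT, K165A and H1093K, in limma's fit, with 1 at an unadjusted p under 0.05 in WT against delta, 1 in K165A against delta and 0 in the other 4. The pentose phosphate list (8 genes, 7 tested) gave 1, Rpia, 1.24-fold lower in WT than in delta (limma adjusted p = 0.0466), a call lost in 14 of 20 alternatives, among them leaving out any 1 of the delta, WT, H1093K or deleted arrays (up to 0.182). In the citrate cycle list (23 genes, 22 tested), 1 was higher and 3 lower in WT, 1 and 4 in K165A, and 0 in H1093K, where 3 were at an unadjusted p under 0.05 in limma's fit. The shares are 18.2% in WT and 22.7% in K165A, beside 12.3% and 11.6%. The isocitrate dehydrogenases parted. Idh2, the mitochondrial NADP form, read 1835 and 1787 in delta, 2729 and 2458 in WT, 2552 and 2536 in K165A, and 1625 and 1679 in H1093K (1.43-fold and 1.4-fold higher than delta in WT and K165A, limma adjusted p = 0.00284 and 0.00392). Idh3a, of the NAD form, read 1719 and 1639 in delta, 1147 and 1101 in WT, 1309 and 1147 in K165A, and 1581 and 1574 in H1093K (1.49-fold and 1.37-fold lower, limma adjusted p = 0.00148 and 0.00610). Idh1 and Idh3b were lower too, by 1.56-fold and 1.24-fold in WT (0.00584 and 0.0144 in limma's fit), the Idh3b call being lost without any 1 of the delta or WT arrays (up to 0.0766).

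**Figure D5:**
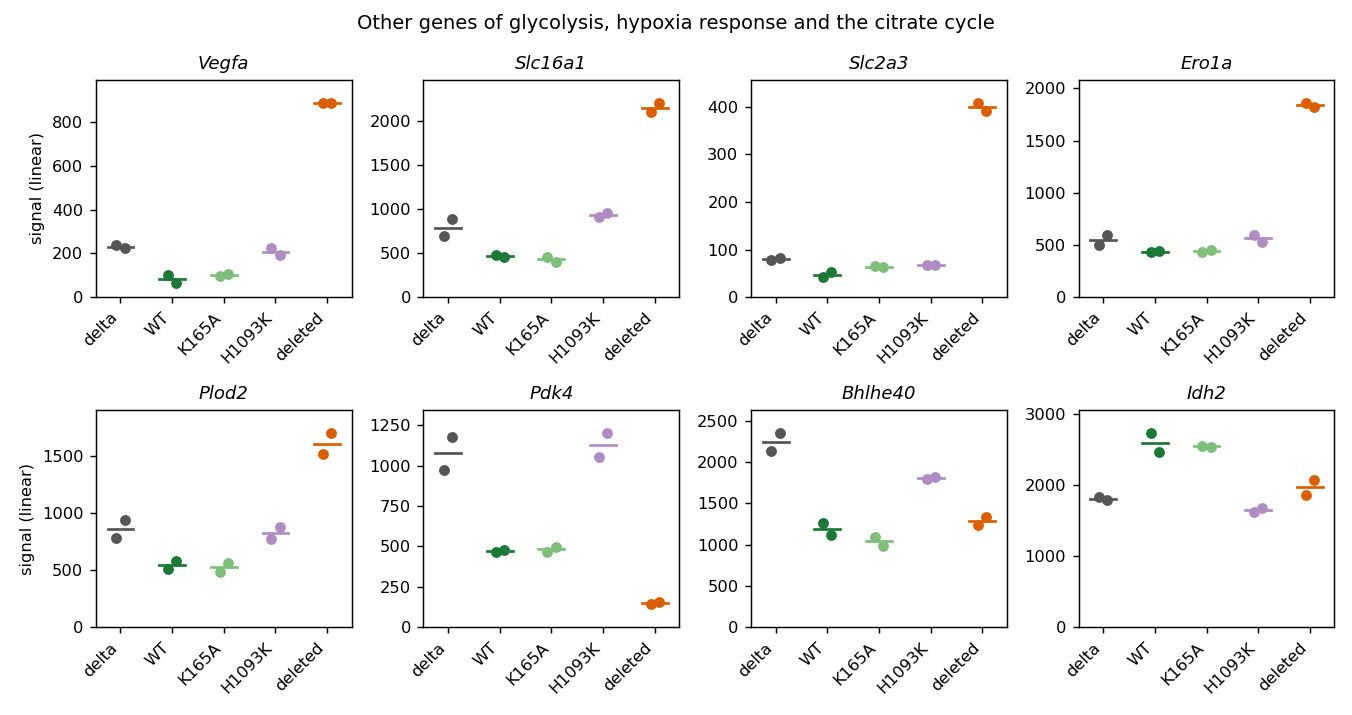
Linear signal of 8 genes from the other lists on every array; points are arrays, lines are group means and axes start at 0. Vegfa, Slc16a1, Pdk4 and Bhlhe40 are lower in WT and K165A than in delta and H1093K, Idh2 is higher there, and Slc2a3, Ero1a and Plod2 are highest on the arrays labelled deleted.

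On the arrays labelled deleted, 5 of the 19 glycolysis list genes bright enough without them were higher than delta and 5 lower, which is 52.6% beside the 33.1% of probe sets. The glucose transporter GLUT3, Slc2a3, passed the filter only through these arrays and had to differ, with 408 and 391 against 77.5 and 82.0. Slc16a1 was 2.71-fold higher and Pck2 2.28-fold higher. Pdk4 read 144 and 157 against 974 and 1176 (6.52-fold lower, limma adjusted p = 1.27e-07). Of 31 hypoxia-responsive genes 9 were higher and 10 lower (61.3%), Igfbp3 being left out because it too passed the filter only through these arrays. Ero1a, the disulfide-forming oxidase of the endoplasmic reticulum, was 3.30-fold higher and Vegfa 3.66-fold higher, while Gadd45b was 2.46-fold and Hmox1, heme oxygenase, 2.0-fold lower. Igfbp3 read 608 and 629 against 1.76 and 1.89, for which no fold is given. Of the oxygen sensing list 33.3% were called, a share at the background of 33.1%. Siah2 and Vhl were higher and Cited2 and Eloc lower, Cited2 by 2.32-fold (limma adjusted p = 5.35e-06). The calls of Siah2, Vhl and Eloc were lost without either delta array and without deleted replicate 1 (up to 0.0966, 0.196 and 0.147), those of Vhl and Eloc also without deleted replicate 2, and that of Vhl without any WT or H1093K array. Among 7 pentose phosphate genes, 57.1% of them called, Pgls and Taldo1 were higher and Pgd and Rpia lower, Pgd by 1.85-fold (0.000378), and the Taldo1 call was lost without delta replicate 1 or deleted replicate 2 (up to 0.193). In the citrate cycle list 5 were higher and 3 lower, a share of 36.4% that lies near the background, with Suclg2 2.22-fold and Acly 1.42-fold higher and Pcx and Idh3a 1.42-fold and 1.25-fold lower, the Idh3a call being lost without delta replicate 1 or deleted replicate 1 (up to 0.0816).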

How the data were processed

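Total RNA (Trizol, RNeasy columns, per the labels' protocols) was labelled with biotin and hybridised to 10 Affymetrix arrays in 5 groups of 2, named by the titles. The authors deposited linear signal intensity values from GCOS 1.4, a tool named in the submitters' processing notes. Each array had a trimmed mean (2% cut at each end) of about 500.1, and no further scaling was applied. Background options and genome build are not given here. The number of arrays limits the precision, and 2 against 2 arrays cannot reach a p below 0.05 in an exact permutation test, so none was run.

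Of 22690 probe sets 64 were controls and left out. The remaining 22626 comprised 20380 with 1 gene in the platform annotation, 691 with several and 1555 without, after symbols were updated through the RefSeq gene table of GRCm38.p6. Only those with 1 gene are named. Probe sets with a mean under the 40th percentile (signal 104) were left out, which kept 13576. In R 4.3.3, limma 3.58.1 (lmFit with 1 mean per group, trended eBayes) modelled log2(signal + 16) over all 10 arrays, with 5 residual and 4.69 prior degrees of freedom, and tested on simulated data. Adjustment is Benjamini-Hochberg over all 13576, for 7 comparisons and an F test over delta, WT, K165A and H1093K. No fold is given where a group mean is under 16.

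A gene is read by its brightest kept probe set, and others are given where they disagree. Values on every array are given for the 14 called members of smallest F p, for members closest to a call, and for others where stated, and up to 4 genes of smallest p are named for each of 5 pathway lists and comparison. Members and lists were chosen with earlier results of these data known. Replicate numbers come from the titles. Deviations of same-numbered arrays from their group means correlated at 0.229 to 0.509 in the 10 pairs of groups, so the numbers pair the arrays, and fits with that block are given beside results they change. Alternatives changed the pseudocount (1, 64), filter (none, 60th percentile), scaling (median centring, quantiles), block, trend, probe set rule and arrays in the fit.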

Additional observations from a re-analysis of the deposited data

How the results depend on the processing

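Over all members and comparisons 0 differences that were called turned direction under any alternative, and with the pseudocount at 1 or 64 no count of calls moved by over 1.5 times. With the replicate block, probe sets called rose to 2863 (WT against delta), 2719 (K165A against delta), 471 (H1093K against delta), 1997 (H1093K against WT), 1898 (K165A against H1093K) and 3045 (F test), and members to 7, 8, 1, 6, 6 and 11. It changed no other call than those given beside the results. Members read as the mean of their probe sets gave 7 in WT and 8 in K165A against delta, with no share over all features to set beside them. With only the arrays compared in the fit, members called were 2 in WT, 2 in K165A, 1 in H1093K against WT and 2 in K165A against H1093K, and probe sets 832 in K165A and 11 in H1093K against delta. With no filter H1093K against delta gave 60 probe sets, H1093K against WT 1 member and the F test 4. With no intensity trend H1093K against delta gave 59 probe sets and K165A against H1093K 2 members. Without both deleted arrays these were 69 probe sets in H1093K against delta and 1 member in H1093K against WT, and the comparison of the deleted arrays has no value. Median centring and quantile normalization each gave 1 member in H1093K against delta, again with no share over all probe sets beside it. The filter at the 60th percentile left 8 members in the deleted comparison, since it tested fewer genes. Counts of members given here without a count of probe sets for the same comparison have no share over all features beside them. They are not read as results about the members. The cause of the other changes was not tested.

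Leaving out 1 array at a time, a lone array being assumed to vary like the other groups, members called ranged from 1 to 5 in WT against delta, 2 to 5 in K165A against delta, 0 to 0 in H1093K against delta, 1 to 2 in H1093K against WT, 2 to 4 in K165A against H1093K, 10 to 13 in the deleted comparison and 1 to 5 in the F test. Probe sets ranged from 831 to 1626, 859 to 1403, 7 to 93, 572 to 1080, 575 to 992, 3237 to 4611 and 1116 to 1343 in the same order. K165A against WT gave 0 throughout.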
